A study of Mus musculus with 6 samples.

Results

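Endothelial cells line blood and lymph vessels, and 37 genes known as markers of these cells, out of 23594 genes in the deposited table, were followed in the growing mouse molar. The genes were chosen by name, as a module of receptors, transcription factors, junction proteins, secreted proteins and capillary proteins, and all 37 were found in the table. The study asked how the LIM homeobox factor Lhx6 shapes the molar root, and RNA was sequenced from apical tissue at the furcation development region (FDR), the part of the first lower molar where the roots will separate. Areas of this tissue were cut out of frozen sections under a microscope (laser-capture microdissection) at age PN4.5, counted in days after birth, in 3 control libraries labelled wild type and 3 Lhx6-/- libraries, all of C57BL/6 mice. Lhx6-/- mice carry the Lhx6-CreER knock-in on both chromosomes, an allele that abolishes Lhx6 function in every tissue and not in the tooth alone. Controls were littermates, both sexes were collected, each library combined several molars, and no source used here says whether the libraries of a group came from separate animals, so p-values measure the spread between these libraries.

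Vascular endothelial growth factor (VEGF) acts on endothelial cells through Kdr, while Flt1 binds the ligand and limits its supply, and Flt4 serves lymph vessels and sprouting blood vessels. Tek, the receptor of angiopoietins, and its partner Tie1 steady mature vessels. Factors of the ETS family (Erg, Fli1) and the SoxF family (Sox7, Sox17, Sox18) switch on endothelial genes. Vessels enter the dental papilla as the tooth forms and later feed the odontoblasts that lay down dentin.

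The promoters of the members were read for the motifs of these factors, which the choice by name did not use, and the sequences shown here give examples with and without a match together with the miRNA of this lineage. RefSeq promoters on GRCm38.p6 were matched for 19 of the 37 genes, and the 250 bases before each start site were searched on both strands for the ETS motifs CAGGAAG and CCGGAAG and for the Sox motif AACAAT. An ETS motif stood in 7 of the 19 genes (36.8%), beside 24.1% of the 13165 tested genes with a promoter, and the Sox motif in 4 of the 19 (21.1%), beside 6.74%. Over all 27025 genes with a promoter the shares were 19% and 10.9%. The difference in shares was not tested, and a match in the letters does not show that a factor binds. Calcrl, Emcn and Erg each had a promoter window with both motifs. The 3 windows below show a Sox motif (Tek, 63 bases before the start), an ETS motif (Apln, 113 bases before the start) and no match (Cldn5, the member with the smallest p). Capitals mark the match. Each window is written along the gene's strand, and both matches lie on the opposite strand, so the capitals read as the reverse complement of the motif. The coordinates are chr4:94739039-94739288 (+) for Tek, chrX:48034854-48035103 (-) for Apln and chr16:18776597-18776846 (+) for Cldn5.
Tek: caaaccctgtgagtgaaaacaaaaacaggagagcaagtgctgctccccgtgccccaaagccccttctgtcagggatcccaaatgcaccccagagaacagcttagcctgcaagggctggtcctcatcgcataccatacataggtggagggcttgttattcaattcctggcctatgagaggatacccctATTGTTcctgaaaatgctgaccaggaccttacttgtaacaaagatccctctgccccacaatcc
Apln: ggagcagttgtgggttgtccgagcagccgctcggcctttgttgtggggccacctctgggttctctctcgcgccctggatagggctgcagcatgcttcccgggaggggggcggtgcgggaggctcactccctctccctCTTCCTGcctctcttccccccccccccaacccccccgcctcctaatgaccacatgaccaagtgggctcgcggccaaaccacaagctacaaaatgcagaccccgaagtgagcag
Cldn5: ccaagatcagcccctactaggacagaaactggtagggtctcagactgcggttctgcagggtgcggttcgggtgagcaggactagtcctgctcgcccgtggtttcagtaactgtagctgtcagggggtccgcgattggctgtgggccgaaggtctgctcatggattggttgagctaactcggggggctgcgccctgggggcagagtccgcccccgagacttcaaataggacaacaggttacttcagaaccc
Egfl7 hosts miR-126a, the miRNA for which endothelial cells are best known. Its mature 3p strand lies at chr2:26591402-26591423 (+), within Egfl7, and is shown with the seed, bases 2 to 8, in capitals. Small RNA was not measured, so only the host gene has a level here.
miR-126a-3p: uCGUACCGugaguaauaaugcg

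Lhx6 itself was read first, at 27.8, 18.2 and 21.9 counts per 1000000 (CPM) for control 1, 2 and 3 and 12.8, 9.82 and 10.5 CPM in the Lhx6-/- replicates. All 3 Lhx6-/- libraries lay below all 3 controls (log2 fold change -1.04 with a standard error, SE, of 0.16, and an adjusted p = 0.0210 in the edgeR fit over all genes), and the adjusted p exceeded 0.05 without control 3, Lhx6-/- 2 or Lhx6-/- 3 (0.111, 0.110 and 0.0772). The libraries held 60132323 to 76157433 estimated counts, and no member had fewer than 70 counts in any library. The 9 endothelial markers checked, Pecam1, Cdh5, Kdr, Tek, Tie1, Cldn5, Emcn, Esam and Egfl7, all stood at 12.9 CPM or more in every library. Genes of odontoblasts summed to 9801 to 11987 CPM over the 6 libraries, and the enamel genes Amelx, Ambn and Enam, products of ameloblasts, took 11.4% to 14.6% of all counts, so RNA of enamel-forming epithelium was present in the captured areas.

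Endothelial genes stood slightly higher in the Lhx6-/- tissue as a list, and most of the single differences were small. Of the 37 members, 30 had a higher and 7 a lower level than in control. Their median log2 fold change was 0.16, with the middle part of the list between 0.09 and 0.28, beside a median of -0.0019 over all 20114 tested genes, of which 49.7% were higher. The rule of the study, a change of 1.5-fold or more whose unadjusted p is under 0.05, was met by 4 members, all higher (Cldn5, Sox7, Vwf and Esm1), or 10.8%, where 3.28% of all tested genes met it, 1.58% higher and 1.71% lower. After Benjamini-Hochberg adjustment over all genes, 2 members, both higher, had an adjusted p under 0.05 in edgeR (Cldn5 and Cd93, 5.41%), beside 0.403% of all genes, or 0.323% counting those that were higher. An unadjusted p under 0.05 was found for 14 members, 13 higher and 1 lower (37.8%, beside 9.81% of all genes and 4.75% higher). The control and Lhx6-/- libraries did not overlap for 17 members, 16 higher and 1 lower (45.9%, beside 15.5% of all genes and 7.86% higher).

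**Figure D1:**
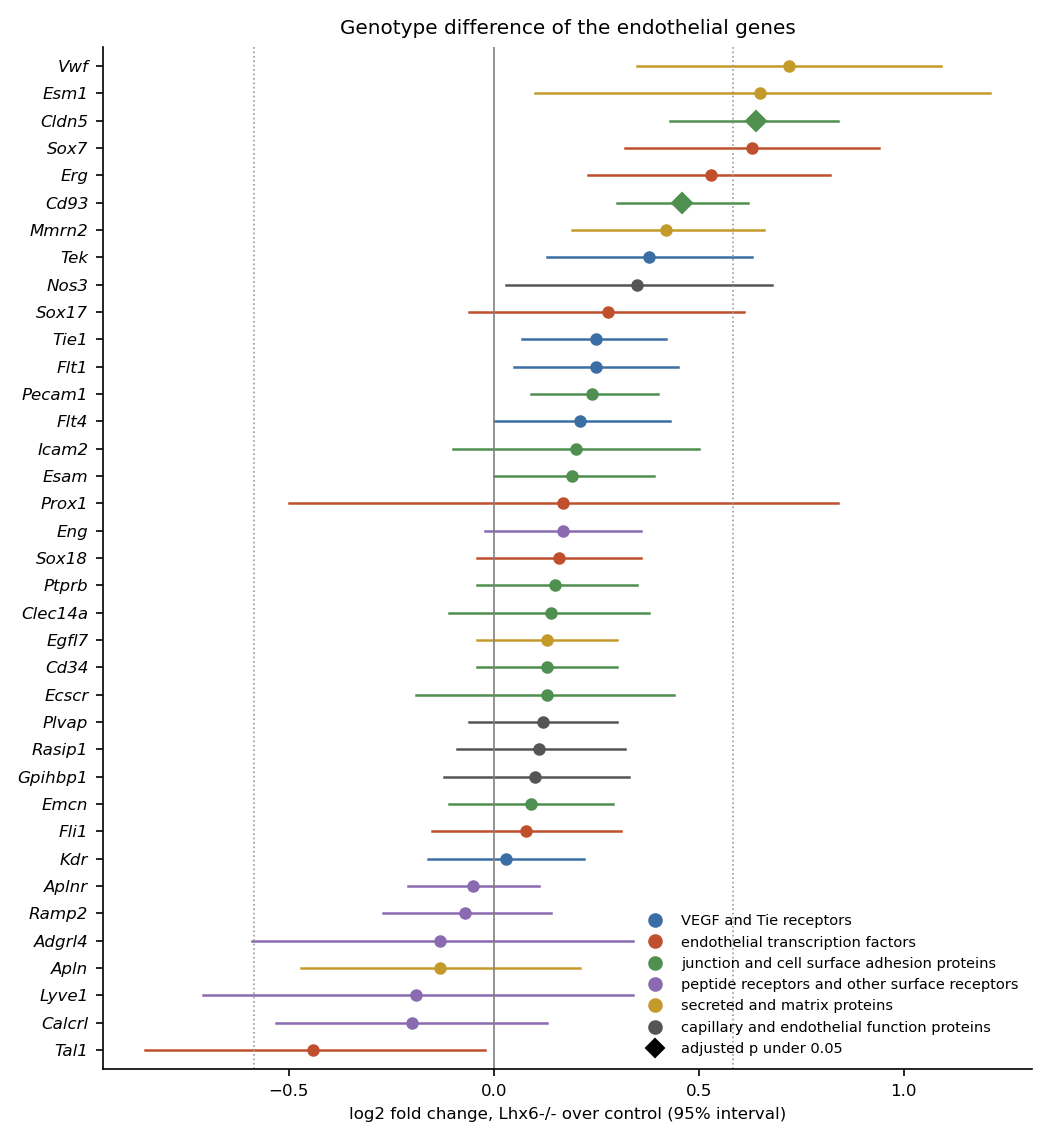
Log2 fold change of each of the 37 endothelial genes, Lhx6-/- over control, with the 95% interval of edgeR's quasi-likelihood fit. Colours give the role, diamonds an adjusted p under 0.05 and dotted lines a 1.5-fold change, and the genes run from Tal1 at -0.44 to Vwf at 0.72 with 30 of 37 above 0.

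The libraries differed in how high they stood for the whole list. The summed level of the 37 genes was 954, 921 and 953 CPM in the controls and 1158, 1039 and 1041 CPM in the Lhx6-/- replicates 1, 2 and 3. Lhx6-/- replicate 1 was the highest of the 6 libraries for 21 members and control replicate 2 the lowest for 14. Without Lhx6-/- replicate 1 the median was 0.12, 3 members met the fold and p rule and none had an adjusted p under 0.05. How many of all genes passed in that smaller fit is not given here. In bulk tissue, fewer cells of a type and less RNA per cell cannot be told apart, nor more cells from more RNA.

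**Figure D2:**
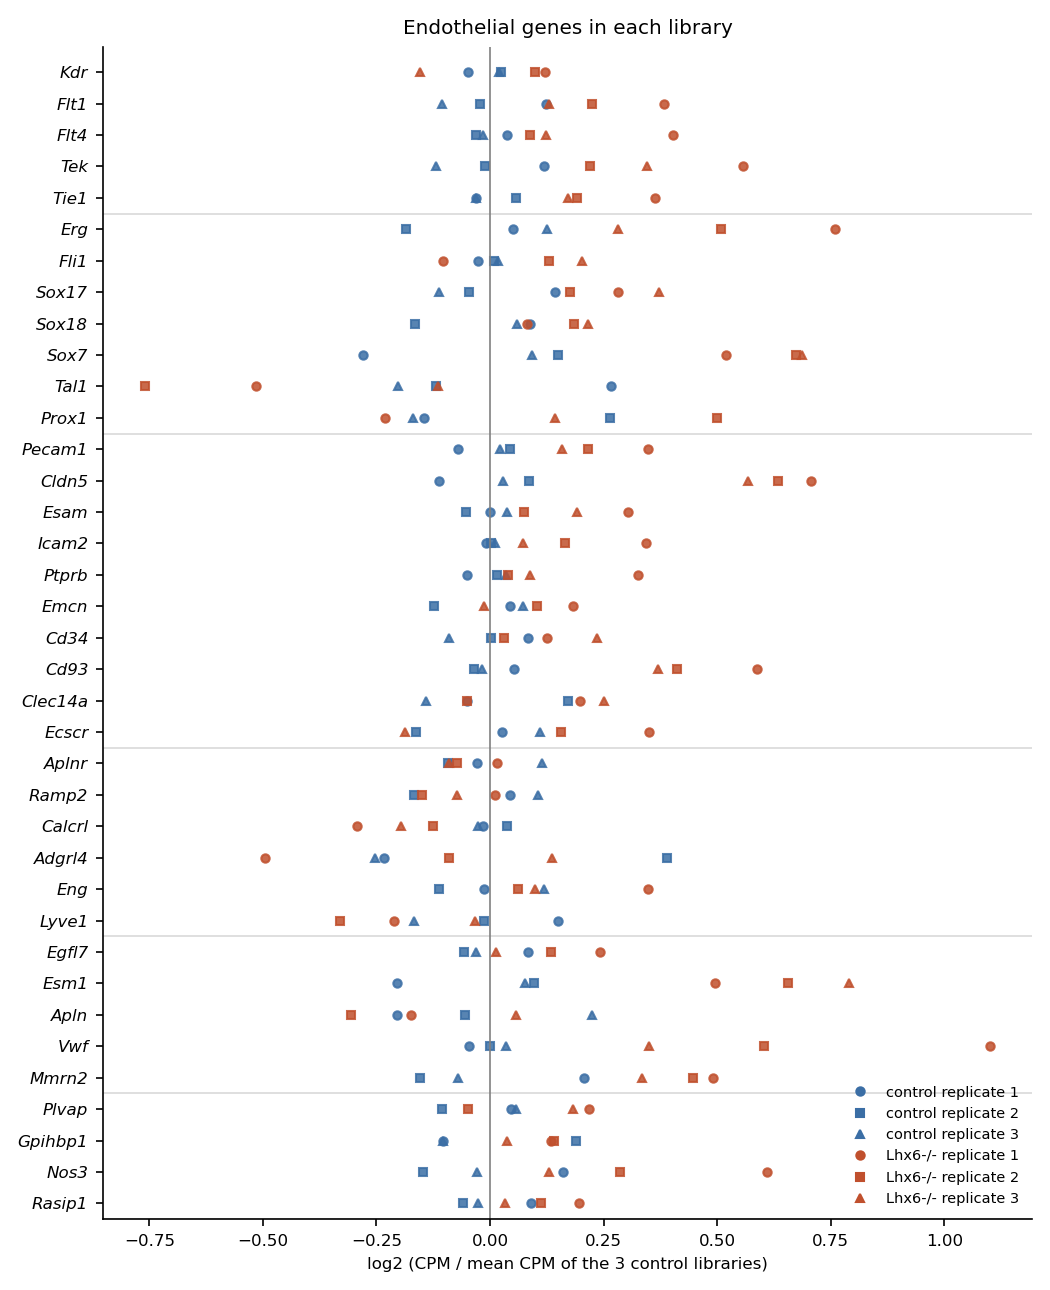
Level of each endothelial gene in each of the 6 libraries, as log2 of CPM over the mean CPM of the 3 controls, with roles separated by grey lines. Control libraries are blue and Lhx6-/- libraries orange, the marker shape gives the replicate, and Lhx6-/- replicate 1 (orange circle) is the highest library for 21 of 37 genes.

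The 5 VEGF and Tie receptors were all higher in Lhx6-/- tissue, by a median of 0.25 on the log2 scale. For 4 of them (80%) the groups did not overlap, beside 15.5% of all tested genes and 7.86% higher. None had an adjusted p under 0.05, beside 0.403% of all genes. Tek, the receptor of angiopoietins, stood at 15.2, 13.9 and 12.9 CPM in control and 20.6, 16.3 and 17.8 CPM in Lhx6-/- tissue. Every Lhx6-/- library was above every control, at a log2 fold change of 0.38 (SE 0.11, edgeR adjusted p = 0.263). Tie1, the partner of Tek, had 36.5, 38.8 and 36.5 CPM against 48.0, 42.6 and 42.0 CPM (log2 fold change 0.25, adjusted p = 0.293). Flt1 read 35.7, 32.3 and 30.5 CPM in control and 42.8, 38.3 and 35.9 CPM in Lhx6-/- tissue, with the lowest Lhx6-/- library just above the highest control (0.25, adjusted p = 0.381). Flt4 showed the same narrow gap, 18.8 to 19.7 CPM against 20.4 to 25.4 CPM, with Lhx6-/- replicate 1 well above the other 5 libraries (0.21, adjusted p = 0.524).

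Kdr, the main VEGF receptor, was the exception among them in that its groups overlapped. It measured 35.2, 37 and 36.9 CPM in control and 39.6, 39.0 and 32.7 CPM in Lhx6-/- tissue, so that the lowest and the highest library were both Lhx6-/-. The fold was 1.02 with a 95% interval of 0.894 to 1.17 on the same scale. Whether Kdr differed from the other receptors in its response was not tested.

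Among the 7 transcription factors, 6 were higher and Tal1 lower, with a median of 0.17. Sox7, a SoxF factor of early vessels, lies on chromosome 14 of mm10 (63943673 to 63950732, + strand) and had 6.04, 8.13 and 7.81 CPM in control and 10.5, 11.7 and 11.8 CPM in Lhx6-/- tissue. Its lowest Lhx6-/- library exceeded its highest control, and the mean went from 7.33 ± 1.12 to 11.3 ± 0.695 CPM (SD, n = 3 libraries each). The log2 fold change was 0.63 (SE 0.14), and the edgeR adjusted p of 0.112 did not pass. Without control replicate 1, its lowest library, the log2 fold change was 0.51 and under the 1.5-fold limit.

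Erg, an ETS factor that keeps endothelial identity, had 11.5, 9.76 and 12.1 CPM in control and 18.8, 15.8 and 13.5 CPM in Lhx6-/- tissue. The groups did not overlap, at a log2 fold change of 0.53 (SE 0.14, edgeR adjusted p = 0.192). Sox17, a SoxF factor of arteries, ran from 4.95 to 5.91 CPM in control and from 6.04 to 6.92 CPM in Lhx6-/- tissue, a gap smaller than the range within either group (log2 fold change 0.28, adjusted p = 0.618). Sox18, the factor with the highest mean CPM of the group, overlapped, with 25.6, 21.5 and 25.1 CPM against 25.5, 27.4 and 28.0 CPM (0.16, adjusted p = 0.637).

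Tal1, which serves both blood cell and endothelial precursors, went the other way and is named here after its value was seen. Its level was 10.2, 7.81 and 7.37 CPM in control and 5.93, 5.01 and 7.83 CPM in Lhx6-/- tissue, and Lhx6-/- replicate 3 lay within the control range (log2 fold change -0.44, edgeR adjusted p = 0.484). Red cell genes moved in the same direction, with 11 of 11 tested lower. Their summed level ran from 3053 to 3781 CPM in control and from 1614 to 2416 CPM in Lhx6-/- tissue. Hba-a1, Hbb-bs, Alas2 and Klf1 met the fold and p rule (36.4%, beside 3.28% of all tested genes and 1.71% lower). The part of red cell genes in the value of Tal1 was not tested. Prox1, the master factor of lymphatic endothelium, was the lowest member per length at 0.17 CPM per kilobase of exon, with 1.2 to 1.62 CPM in control and 1.15 to 1.91 CPM in Lhx6-/- tissue, and its fold of 1.13 had a 95% interval of 0.707 to 1.79.

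All 10 junction and cell surface adhesion genes were higher in Lhx6-/- tissue, by a median log2 fold change of 0.17, and the 2 members that passed the adjusted test were among them. Cldn5 encodes the claudin that seals endothelial tight junctions and lies on chromosome 16 of mm10 (18776847 to 18778262, + strand). It had 13.6, 15.6 and 15 CPM in control and 24.0, 22.8 and 21.8 CPM in Lhx6-/- tissue. The 3 libraries of each group lay close together and the gap between the groups was wider than either range, with means of 14.7 ± 0.997 and 22.9 ± 1.10 CPM (SD, n = 3 each). The rise was 55.3%, a log2 fold change of 0.64 (SE 0.09, edgeR adjusted p = 0.0140).

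Cd93, a surface lectin-like receptor in endothelial adhesion that some leukocytes also carry, lies on chromosome 2 (148436640 to 148443563, - strand). It read 71.8, 67.5 and 68.4 CPM in control and 104, 92.1 and 89.4 CPM in Lhx6-/- tissue. Again no Lhx6-/- library came near the controls, and the rise was 37.5% (log2 fold change 0.46, SE 0.07, edgeR adjusted p = 0.0223), under the 1.5-fold limit. Of 16 leukocyte genes tested, 12 had a lower level, none met the fold and p rule, and their part in the value of Cd93 was not tested. Their sum was 669 to 698 CPM in control and 599 to 693 CPM in Lhx6-/- tissue.

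Both calls depended on which libraries entered the fit. With control replicate 3, Lhx6-/- replicate 1 or Lhx6-/- replicate 2 left out, the adjusted p of Cldn5 was 0.0837, 0.0836 and 0.0941 and that of Cd93 was 0.157, 0.120 and 0.101 in edgeR, while the log2 fold change stayed between 0.60 and 0.65 for Cldn5 and between 0.39 and 0.48 for Cd93. Over the 16 other fits set for this comparison each gene had an adjusted p under 0.05 in 13, with a range of 5.34e-06 to 0.0941 for Cldn5 and of 2.69e-05 to 0.157 for Cd93.

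**Figure D3:**
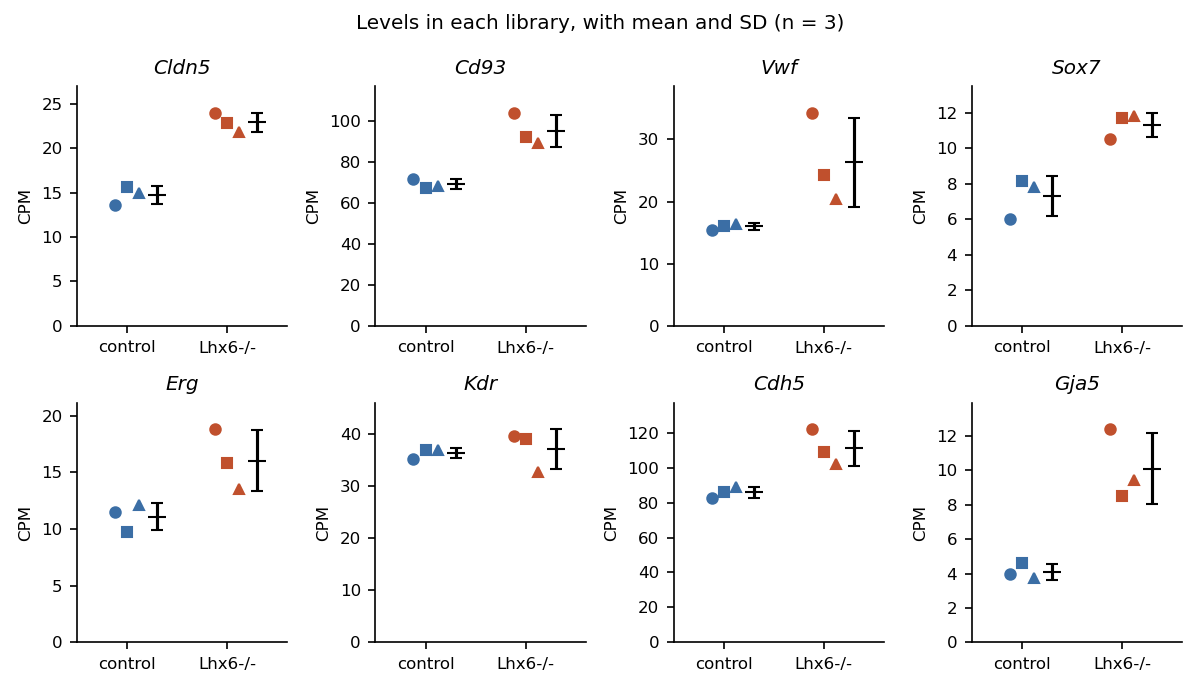
CPM in each of the 6 libraries for 6 endothelial members and for Cdh5 and Gja5, with the mean and SD (n = 3) of each group in black, on axes that start at 0. Cldn5 and Cd93 show tight and separate groups, Vwf is separate but spread from 20.4 to 34.3 CPM in Lhx6-/- tissue, and the groups of Kdr overlap.

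Pecam1, the adhesion protein most used to stain vessels, had 62.4, 67.5 and 66.5 CPM in control and 83.3, 76.1 and 73.1 CPM in Lhx6-/- tissue. The groups did not overlap, but the rise was 18.4% and did not pass the adjusted test (log2 fold change 0.24, SE 0.07, edgeR adjusted p = 0.262). Esam, a tight junction adhesion molecule, had 21.8 to 23.2 CPM against 23.8 to 27.9 CPM. Icam2, a ligand of leukocyte integrins, had 6.64 to 6.73 CPM against 7.03 to 8.48 CPM, and the phosphatase Ptprb, which acts on Tek and on the endothelial cadherin, had 27.4 to 29.1 CPM against 29.2 to 35.6 CPM. For these 3 genes the groups were separate by less than the range within the Lhx6-/- group, and the adjusted p from edgeR lay between 0.505 and 0.722. The other 4 of the group, Emcn, Cd34, Clec14a and Ecscr, overlapped, with log2 fold changes of 0.09 to 0.14.

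Receptors for peptides and other surface receptors were the one role in which most genes were lower, 5 of 6 (median log2 fold change -0.10), and none of the 6 had an unadjusted p under 0.05. The count was 4 of 6 without Lhx6-/- replicate 1, control replicate 2 or control replicate 3, and 3 of 6 in a fit, added after seeing the data, that also held the Y-linked level, where Aplnr and Ramp2 had log2 fold changes of 0.09 and 0.16. Calcrl, the receptor that forms the adrenomedullin receptor together with Ramp2, had 5.67, 5.88 and 5.63 CPM in control and 4.68, 5.25 and 5 CPM in Lhx6-/- tissue. It was the only member whose Lhx6-/- libraries all lay below the controls (log2 fold change -0.20, 95% interval -0.53 to 0.13, edgeR adjusted p = 0.745). Ramp2, which overlaps Vps25 on the same strand, and Aplnr, the apelin receptor, had folds of 0.954 (0.828 to 1.10) and 0.966 (0.863 to 1.08). Lyve1, the hyaluronan receptor of lymphatic vessels and some macrophages, stood at 1.96 to 2.44 CPM in control and 1.75 to 2.15 CPM in Lhx6-/- tissue, which overlapped.

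Eng, the TGF-beta co-receptor, was the higher gene of this role and had the highest mean CPM of all members. It measured 89.6, 83.6 and 98.1 CPM in control and 115, 94.4 and 96.8 CPM in Lhx6-/- tissue, where 1 library stood above the rest and the other 2 lay inside the control range (log2 fold change 0.17, edgeR adjusted p = 0.585).

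Among the 5 secreted and matrix genes the median log2 fold change was 0.42. Vwf, Esm1 and Mmrn2 were higher without overlap (60%, beside 7.86% of all tested genes). Vwf encodes von Willebrand factor, the carrier of platelet adhesion that endothelium stores, and lies on chromosome 6 (125546774 to 125686679, + strand). Control libraries agreed closely at 15.5, 16.0 and 16.4 CPM, while the Lhx6-/- libraries spread over 34.3, 24.3 and 20.4 CPM. The log2 fold change was 0.72 (SE 0.17, edgeR adjusted p = 0.160). Without Lhx6-/- replicate 1 it was 0.48, under the 1.5-fold limit, and without Lhx6-/- replicate 3 it was 0.87 with an adjusted p of 0.0299 in edgeR. Megakaryocytes and platelets hold this factor too, and their genes were lower in 6 of 8 tested, and summed to 17.5 to 19.5 CPM in control and 11.7 to 18.2 CPM in Lhx6-/- tissue. Their part in the value of Vwf was not tested.

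Esm1, a proteoglycan of endothelial tip cells, was a gene of low level, with 1.25, 1.54 and 1.52 CPM in control and 2.03, 2.27 and 2.49 CPM in Lhx6-/- tissue, or 78 to 103 counts against 124 to 185. All Lhx6-/- libraries were higher, by a log2 fold change of 0.65 with an SE of 0.25 (edgeR adjusted p = 0.413), and the fold and p rule was no longer met without control replicate 1, Lhx6-/- replicate 2 or Lhx6-/- replicate 3. Mmrn2, a matrix protein of the vessel wall that binds Cd93, had 19.4, 15.1 and 16.0 CPM against 23.6, 22.9 and 21.2 CPM (0.42, adjusted p = 0.174). Egfl7, the host of the miRNA shown above and the secreted gene with the highest level, overlapped at 64.4 to 71.0 CPM against 67.6 to 79.2 CPM, a fold of 1.10 (0.975 to 1.23). Apln, the ligand of Aplnr whose promoter is shown above, overlapped as well (log2 fold change -0.13).

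The 4 capillary and endothelial function genes were all higher, by 0.10 to 0.35, and all overlapped. Plvap, which forms the diaphragms of capillary pores, had 71.5, 64.4 and 72.1 CPM in control and 80.6, 67.0 and 78.7 CPM in Lhx6-/- tissue, a fold of 1.09 (0.959 to 1.23). Nos3, the endothelial nitric oxide synthase, had an unadjusted p of 0.0358 at a log2 fold change of 0.35 and an adjusted p of 0.472 in edgeR, and is named here after its value was seen.

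Per length, Plvap was the most abundant member, at 36.4 CPM per kilobase of exon averaged over the 6 libraries, followed by Eng at 23.8, Egfl7 at 19.6, Aplnr at 16.3 and Sox18 at 15.8. Cldn5 and Cd93 followed at 13.3 and 12.3, and Prox1, Lyve1 and Esm1 closed the order at 0.17, 0.707 and 0.882. The lymphatic markers Prox1 and Lyve1 were the lowest of all 37 per length. The members had a median coefficient of variation of 8.01% in control and 9.66% in Lhx6-/- tissue, beside 9.72% and 8.37% over 13130 tested genes within the same range of mean CPM.

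**Figure D4:**
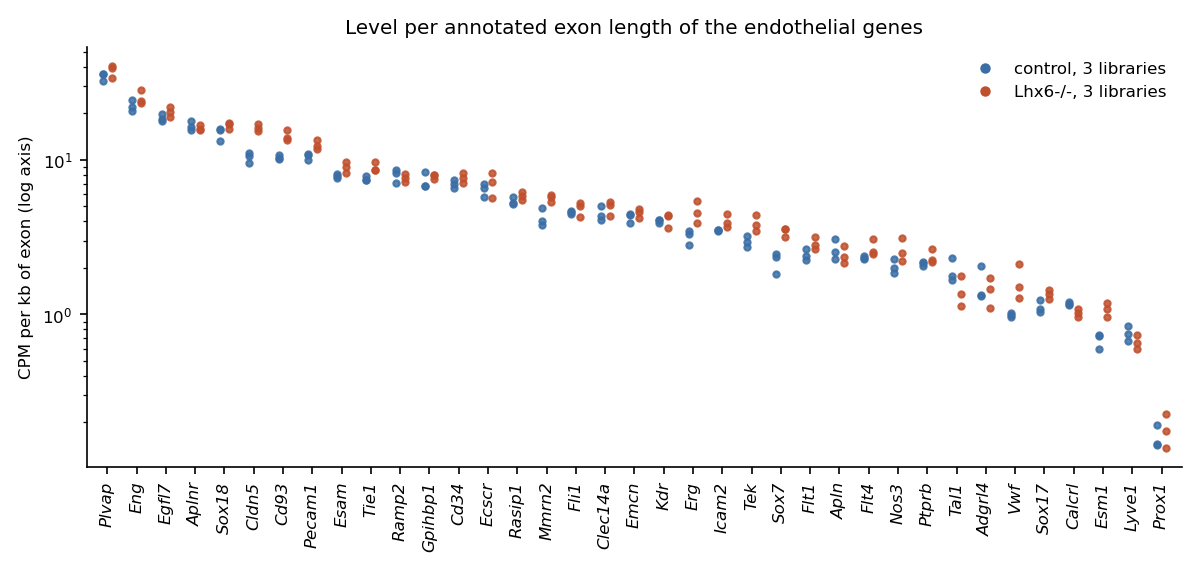
CPM per kilobase of annotated exon for the 37 endothelial genes in order of their mean over 6 libraries, on a log axis, with 3 control (blue) and 3 Lhx6-/- (orange) libraries each. Levels run from 36.4 for Plvap to 0.17 for Prox1, and the 2 colours lie apart for Cldn5, Cd93, Vwf and Sox7 but mix for Aplnr and Ramp2.

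A further list of endothelial genes was read for comparison. Of 40 tested, 34 were higher (median log2 fold change 0.15), and 3 met the fold and p rule (7.5%, beside 3.28% of all tested genes). An unadjusted p under 0.05 was found for 9, all of them higher (22.5%, beside 9.81% of all genes and 4.75% higher). Gja5, the connexin of arterial endothelium, had 3.95, 4.61 and 3.75 CPM in control and 12.4, 8.49 and 9.45 CPM in Lhx6-/- tissue (log2 fold change 1.30, SE 0.17, edgeR adjusted p = 0.00879). Gja4, the other arterial connexin, had 9.59, 9.26 and 8.23 CPM against 17.6, 13.7 and 14.2 CPM (0.75, adjusted p = 0.0299). Both log2 fold changes were above that of every member, among which Vwf had the highest at 0.72. The adjusted p of Gja5 was 0.0826 in edgeR without control replicate 3, and that of Gja4 exceeded 0.05 without each library other than control replicate 1, with a highest value of 0.187 without control replicate 3. The third gene, Edn1, the vessel-constricting peptide endothelin, was at 1.08 to 1.2 CPM against 1.67 to 2.03 CPM (0.73, adjusted p = 0.386). The list also holds Bmx, Dll4, Efnb2, Hey1, Hey2 and Notch4, likewise genes of arterial endothelium, named after their values were seen. Their log2 fold changes were 0.78, 0.27, 0.12, 0.09, 0.31 and 0.16, with edgeR adjusted p from 0.381 to 0.838. Whether arterial genes differed as a set was not tested.

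Cdh5, the cadherin of endothelial junctions and a lineage marker outside the list, had 82.7, 86.1 and 88.8 CPM in control and 122, 109 and 102 CPM in Lhx6-/- tissue (log2 fold change 0.37, edgeR adjusted p = 0.0850). Set per 100 CPM of Cdh5, a reference chosen after the values were seen, 29 of the 37 members were lower in Lhx6-/- tissue, 19 of them without overlap, where 88.9% of all tested genes were lower and 48.0% were lower without overlap, so nothing is read from the lower members. Cldn5 and Vwf were the 2 members higher without overlap on this scale, as were 1.2% of all tested genes. Cldn5 had 16.5, 18.1 and 16.9 per 100 CPM of Cdh5 in control and 19.7, 21.0 and 21.4 in Lhx6-/- tissue. Kdr had 42.5, 43.0 and 41.5 against 32.5, 35.9 and 32.0, and Aplnr had 72.5, 66.6 and 74.5 against 50.6, 53.4 and 56.3. Since Cdh5 stood higher in Lhx6-/- tissue, a member with a smaller rise is lower on this scale by construction.

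Ligands of these receptors were read as a list of their own. Of 12 tested ligand and co-receptor genes, 10 were higher, with a median of 0.06. The fold and p rule was met by 1 (8.33%, beside 3.28% of all tested genes). Vegfa, the ligand of Kdr and Flt1, had 77.2, 77.3 and 68.8 CPM in control and 75.3, 76.5 and 72.7 CPM in Lhx6-/- tissue, a fold with a 95% interval of 0.904 to 1.12. Angpt4, an angiopoietin that binds Tek, had 23.7, 16.8 and 16.0 CPM against 43.7, 27.2 and 28.7 CPM (log2 fold change 0.82, SE 0.23, edgeR adjusted p = 0.295). Of 8 lymphatic genes, 5 were higher with a median of 0.15, none met the fold and p rule, and Foxc2, a factor of lymphatic valves that mesenchyme also expresses, was the 1 gene with an unadjusted p under 0.05, named after its value was seen (log2 fold change 0.57).

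Genes of the cells that wrap vessels were higher in Lhx6-/- tissue as well, and their part in the values of the endothelial genes was not tested. Of 15 genes of pericytes and smooth muscle, 12 were higher, and their median log2 fold change was 0.30. Their sum was 766 to 805 CPM in control and 933 to 1075 CPM in Lhx6-/- tissue. Of these genes 60% had an unadjusted p under 0.05 and 60% did not overlap. The shares were 37.8% and 45.9% for the endothelial genes and 9.81% and 15.5% for all tested genes. Rgs5, a pericyte gene, had 135, 138 and 133 CPM against 257, 188 and 212 CPM (0.70, edgeR adjusted p = 0.0135), and Myh11, the smooth muscle myosin, met the fold and p rule at 0.87 (adjusted p = 0.116). Without control replicate 3 the adjusted p of Rgs5 was 0.115 in edgeR.

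**Figure D5:**
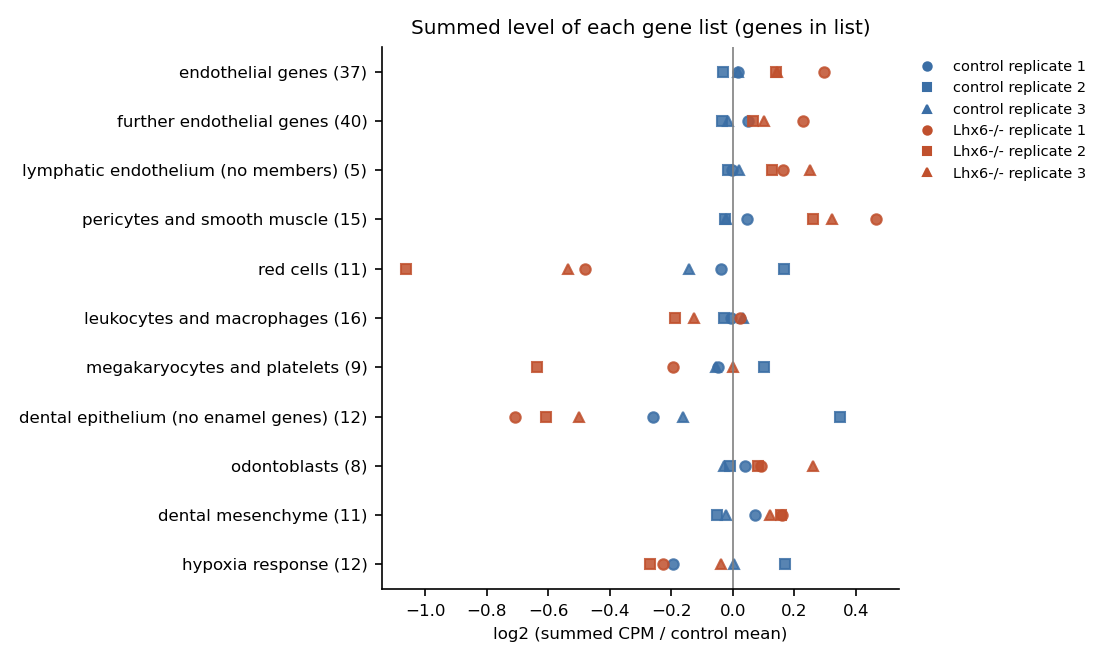
Summed CPM of each gene list in each library, as log2 over the mean of the 3 controls, with the number of genes in parentheses. Endothelial, pericyte and smooth muscle lists lie to the right in Lhx6-/- tissue (orange). The red cell list and the dental epithelium list without enamel genes lie to the left of all controls (blue).

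Dental epithelium went the opposite way and differed between controls too. Its 12 genes other than Amelx, Ambn and Enam were all lower in Lhx6-/- tissue, by a median of -0.51, and the keratins Krt14, Krt5 and Krt17 of basal epithelium met the fold and p rule (log2 fold changes -0.62, -0.72 and -1.03). Their sum was 1481, 2253 and 1582 CPM in control and 1086, 1164 and 1253 CPM in Lhx6-/- tissue. With this level as a covariate, chosen after the data were seen, the median of the 37 endothelial genes was 0.12 and 3 met the fold and p rule. None had an adjusted p under 0.05, and the number over all genes in the covariate fits is not given here. Cldn5 and Cd93 had log2 fold changes of 0.73 and 0.34 with SE of 0.16 and 0.11 (adjusted p = 0.126 and 0.305 from edgeR). Libraries also differed in Y-linked genes, whose sum was 17.4, 58.0 and 14.6 CPM in control and 55.1, 92.1 and 88.5 CPM in Lhx6-/- tissue. With that level as a covariate, chosen likewise, the median was 0.26 and 2 members, Cd93 and Erg, had an adjusted p under 0.05 (0.0282 and 0.0488 in edgeR), while Cldn5 had 0.0770. The number of members that were higher was 24 of 37 with the epithelial and 28 of 37 with the Y-linked covariate. Adgrl4, an adhesion receptor of sprouting vessels named after its values were seen, changed sign between them, at a log2 fold change of -0.13 with genotype alone, 0.63 with the epithelial and -0.74 with the Y-linked covariate (edgeR adjusted p = 0.917, 0.439 and 0.144).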

How the data were processed

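RNA of laser-captured apical FDR tissue was sequenced as single-end reads in 3 control and 3 Lhx6-/- libraries. The deposited values are estimated counts per gene, which the authors made by trimming the reads, aligning them to mm10 (GRCm38) with STAR 2.6.1d and quantifying them in Partek, per the submitters' processing notes. The annotation, the quantification settings and the use of strand are not given in the sources used here. A second deposited table holds gene names, positions and the authors' own comparison (ratio, log2 ratio, fold change, p-value, FDR and group means). None of these comparison columns was used, and a column of per-gene totals served to check that its gene order is that of the estimated counts (largest relative deviation 1.14e-07). Every deposited gene reaches at least 10 estimated counts in some library.

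Libraries were matched by the names in the labels, and the replicate numbers are those of the sample titles. The 37 members, the gene lists, their roles and the tests were chosen with earlier results of these data known. Estimated counts were rounded and tested over all genes with edgeR 4.0.16 in R 4.3.3 (quasi-likelihood test, TMM factors 0.977 to 1.04, filterByExpr, robust dispersion, genotype alone, two-sided), with Benjamini-Hochberg adjustment over the 20114 tested genes. A gene met the fold and p rule at 1.5-fold or more with an unadjusted p under 0.05. The biological coefficient of variation was 0.202. CPM are estimated counts per 1000000 of the library's total scaled by its TMM factor, and levels per length divide them by the exon length of GENCODE vM21. Intervals are 95% from the same fit. With 3 against 3 libraries, an exact two-sided permutation test of a single value cannot give a p below 0.1.

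Genes named were members that met the rule, had an adjusted p under 0.05 or did not overlap between groups, the member with the highest mean CPM in each role, 6 lineage markers, genes of other lists that met the rule or the adjusted threshold, Cdh5, Vegfa and Lhx6, and any other is marked as named after its value was seen. Etv2, Gdf2, Bmp10 and Ahsp were in a list and are absent from the deposited genes, and Apela and Gp6 were present but not tested. Fli1, Ptprb, Eng, Egfl7 and Rasip1 overlap other genes on the same strand in the annotation, so their counts may be shared. The 16 alternative fits used other scalings, DESeq2 1.42.0, limma 3.58.1 (limma-trend and voom), 2 other low-count filters, dispersion without the robust option, the replicate number as a block and 1 library left out, and 2 covariate fits were added after seeing the data. The code was tested on simulated counts. Promoter and miRNA sequences are from RefSeq on GRCm38.p6.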

Additional observations from a re-analysis of the deposited data

How the results depend on the processing

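The number of endothelial genes past the fold and p limits was 4 under every other scaling, tool, filter and dispersion, and ranged from 2 to 5 when 1 library was left out (2 without control replicate 1). It was 0 with a 2-fold limit, where the same edgeR fit had 14 members at an unadjusted p under 0.05 with no fold limit and DESeq2 had 6 members at an adjusted p under 0.05. The number with an adjusted p under 0.05 was 2 in the scaling, limma, filter and dispersion alternatives, 6 with DESeq2 (Cd93, Cldn5, Erg, Mmrn2, Sox7 and Vwf) and 0 to 3 when 1 library was left out. It was 0 without control replicate 3, Lhx6-/- replicate 1 or Lhx6-/- replicate 2. Of the fits added after seeing the data, the epithelial covariate gave 0 members with an adjusted p under 0.05, and the Y-linked covariate gave a median log2 fold change of 0.26. The numbers over all genes in these fits are not given here, so the member counts cannot be set beside them. DESeq2 also gave lower adjusted p to genes outside the list, such as Krt14 (5.32e-05, edgeR 0.116) and Dsp (2.81e-05, edgeR 0.179), though Krt5 had 0.0791. The median of 0.16 ranged from 0.12 to 0.21 when 1 library was left out, and 28 to 31 of 37 members were higher in all planned fits.

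The paper describes the samples as pairs and does not state which libraries form a pair. The Lhx6-/- libraries are numbered differently in the deposited counts and in the sample titles, whose numbers were used. Libraries of one title number correlated at 0.0256, -0.0288 and -0.0314, which does not settle whether libraries were paired in another way. With the replicate number as a block, 4 members met the fold and p rule, 2 had an adjusted p under 0.05 and the median was 0.16. No library correlated best with the library of its own number. Control 1 correlated best with Lhx6-/- 2 (0.037), control 2 with Lhx6-/- 3 (0.0951) and control 3 with Lhx6-/- 1 (0.0346). Over all genes the block left 652 past the fold and p limits and raised the number with an adjusted p under 0.05 from 81 to 134, among them Angpt4 (0.00162), Myh11 (0.0188) and Krt17 (0.00831 in edgeR).

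Among the 44 genes that the naming rule gave, reversed log2 fold changes, all of genes that did not pass the test, were those of Vegfa (-0.04 without control replicate 3, -0.01 without Lhx6-/- replicate 2 and -0.06 with the Y-linked covariate), Kdr (-0.02 without Lhx6-/- replicate 1 and -0.01 without Lhx6-/- replicate 2), Prox1 (-0.03 without Lhx6-/- replicate 2 and -0.31 with the Y-linked covariate) and, with the epithelial covariate, Sox18 (-0.02), Eng (-0.03), Egfl7 (-0.02) and Plvap (-0.03). When 1 library was left out, the range was -0.04 to 0.04 for Vegfa, -0.02 to 0.11 for Kdr and -0.03 to 0.34 for Prox1. Of 792 values of these 44 genes, 720 kept their direction and side of the threshold, 25 lost it, 36 gained it and 11 reversed. Other members that changed sign were Aplnr (0.09), Ramp2 (0.16), Clec14a (-0.03), Gpihbp1 (-0.11) and Fli1 (near 0) with the Y-linked covariate, Emcn (-0.12), Ecscr (-0.21), Rasip1 (-0.02) and Adgrl4 (0.63) with the epithelial one, Adgrl4 without Lhx6-/- replicate 1 (0.03) or control replicate 2 (0.12), and Aplnr without control replicate 3 (0.01). The cause was not tested. Low counts limit the precision most for Esm1, Prox1 and Lyve1.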

Other observations

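Lists of other tissue states were read in the same libraries. Of 12 hypoxia response genes, 10 were lower in Lhx6-/- tissue, with a median log2 fold change of -0.21, none met the fold and p rule, and their sum ran from 582 to 749 CPM in control and from 552 to 648 CPM in Lhx6-/- tissue, which overlapped. Of 8 odontoblast genes, 6 were higher with a median of 0.08. Of 11 dental mesenchyme genes, 10 were higher with a median of 0.18, close to that of the endothelial genes. Their sum was 755 to 824 CPM in control and 852 to 875 CPM in Lhx6-/- tissue. None met the fold and p rule. An unadjusted p under 0.05 was found for 54.5% (5 higher and 1 lower), and 63.6% did not overlap (6 higher and 1 lower). The shares of the endothelial genes were 37.8% (13 higher and 1 lower) and 45.9% (16 higher and 1 lower). A small and separate rise was therefore not particular to the endothelial genes.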
